A study of Mus musculus with 4 samples.

Results

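Retinoid receptors and their cofactors were followed through 8 genes of the 24421 in the count files. These genes were chosen by gene symbol, with earlier results of these data known. They are the retinoic acid receptors Rara, Rarb and Rarg, the retinoid X receptors Rxra, Rxrb and Rxrg, and the cofactors Nrip1 and Ncor1. All 8 had counts in each library and were among the 19891 genes tested. RNA came from R1, an established line of mouse embryonic stem cells (ESCs), and was sequenced as 2 Illumina TruSeq libraries of Undiff and 2 of Day4, which are biological replicates that were grown and treated separately. The methods name a TruSeq kit that selects poly(A) RNA, while the labels also name a strand-specific kit that depletes ribosomal RNA, and which one made these libraries could not be told. Undiff cells received no retinoic acid (RA). The methods describe them as kept in medium with leukaemia inhibitory factor, the cytokine that holds ESCs undifferentiated, whereas the labels speak of embryoid bodies, which are aggregates in which ESCs differentiate. Day4 cells were grown as embryoid bodies without that factor, with RA over the last 4 days, at 2 µM according to the methods and 2 mM according to the sample labels. The labels give no genetic change between the states, all libraries share the R1 line, and Day4 differs from Undiff in the medium and the culture time as well as in RA. A Day4 culture without RA was not analysed here, so that the effects of RA and of the rest of the culture cannot be told apart.

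RA is made from vitamin A and enters the nucleus, where it binds a retinoic acid receptor (RAR). A RAR sits on DNA as a pair with a retinoid X receptor (RXR), on direct repeats of a short half-site. Without ligand the pair holds corepressors such as Ncor1 with histone deacetylases, and with ligand it exchanges them for coactivators with histone acetyltransferase activity. Nrip1 encodes RIP140, which binds receptors that carry ligand and acts mostly as a repressor. RXRs also pair with thyroid hormone, vitamin D, PPAR and other receptors. In ESCs, RA is widely used to drive differentiation, and Rarb is a classical RA-induced gene.

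The libraries held between 32099074 and 47730944 fragments on genes. The labelled states were checked with marker lists of 10 genes each. Pluripotency markers summed to 5003 and 5031 CPM (counts scaled to library size) in Undiff and to 26.7 and 21.1 CPM in Day4, and all 10 were lower in Day4 by the thresholds given below. Mesoderm and cardiac markers went from 40.5 and 37.4 CPM to 709 and 733 CPM, with 7 genes higher and 1 lower. Fibroblast markers went from 1598 and 1513 CPM to 2352 and 2230 CPM (7 higher, 3 lower). Most of their Undiff sum was Fn1, which fell from 1458 and 1373 CPM to 286 and 306 CPM. Endothelial and blood markers went from 175 and 173 CPM to 396 and 388 CPM (6 higher, 2 lower, or 1 lower when scaled by library totals). Most of their Undiff sum was Pecam1, which fell from 141 and 137 CPM to 60.6 and 60.9 CPM. These sums therefore do not show the size of change of the other markers. The sums of neural markers (149.7 to 164 CPM over the 4 libraries, 3 genes higher and 4 lower) and of visceral endoderm markers (36.1 to 41.7 CPM, 6 higher and 2 lower) overlapped between the states. Neurog2, Dcx, Foxf1, Afp, Hba-x and Lum were among the markers with at most 3 counts in both Undiff libraries, and no marker had so few in both Day4 libraries. The fragments assigned to no gene also differed, with 12.1% and 13.2% in Undiff and 7.50% and 7.74% in Day4. Most of these markers moved with the state, also in the lists with overlapping sums, and so with each change below. The part of the markers in the results was not tested. In such bulk RNA, fewer cells of a type and less RNA per cell cannot be told apart.

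Of the 8 genes, 4 rose (Rara, Rarb, Rxra and Nrip1), 2 fell (Rarg and Rxrg) and 2 did not pass the thresholds for a differentially expressed gene (Rxrb and Ncor1). A gene was called a DEG where 3 conditions were met together. Its p-value from the quasi-likelihood test of edgeR, adjusted by Benjamini-Hochberg over all genes tested, did not exceed 0.05, its log2 fold change reached 1 in either direction, and its normalized counts averaged 5 or more. Normalized counts are counts scaled to a common effective library size. The background was high, since 42.8% of all genes tested were DEGs, 22.2% in the direction of Day4 and 20.6% in the direction of Undiff. The adjusted p-value alone was passed by 7 of the 8 genes and by 75.6% of all genes, and the libraries of the states did not overlap for 7 of the 8 and for 85.3% of all genes. By these last measures the members were near the background, and the account below turns on the size and the direction of each change. The median log2 fold change was 1.00 over the members and -0.03 over all genes.

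**Figure D1:**
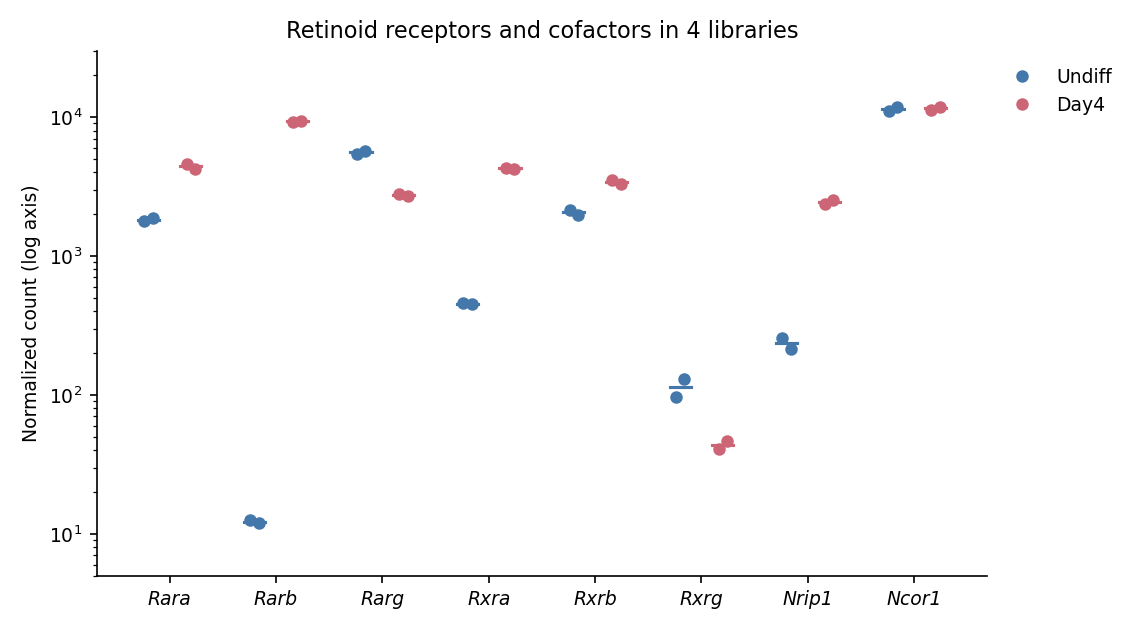
Normalized counts (log axis) of the 8 genes in the 4 libraries; each point is 1 library and each short line the mean of 2 replicates. Rarb lies near 12 normalized counts in both Undiff libraries and at 9238 and 9419 in the Day4 libraries, whereas the points of Ncor1 overlap.

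Rarb showed the largest change of the members. Its counts were 12 and 10 in Undiff and 8844 and 12268 in Day4, which are 12.5 and 12.0 normalized counts against 9238 and 9419. Both Undiff libraries held a few fragments of Rarb, above the floor of 3 counts, and the replicates of each state lay close together. The mean rose from 12.2 ± 0.375 to 9329 ± 128 normalized counts (SD, n = 2 in each state), which is a log2 fold change of 9.56 ± 0.09 (SE, edgeR, adjusted p = 2.3e-16). Only 22 fragments stand behind the Undiff level, so that the 762-fold rise has a 95% exact binomial interval from 503-fold to 1220-fold, which covers counting error only. By the fitted log2 fold change, Rarb stood in place 61 of the 19891 genes.

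Rarb lies on chromosome 14 (16430839 to 16819156 of GRCm38, minus strand, GENCODE vM21). In that annotation 1793 bases of its exons, 34.1% of their length, overlap exons of Top2b, a DNA topoisomerase gene on the opposite strand. Top2b had 2552 and 2686 normalized counts in Undiff and 11443 and 11660 in Day4, a log2 fold change of 2.14. In RefSeq the genes do not overlap and lie 51 bases apart. According to the methods, genes were counted on an mm10 annotation from iGenomes UCSC, and whether these genes overlap in it was not checked. The strand option of the gene counting is not stated for these libraries, and how far fragments of Top2b entered the Rarb count was not tested. In the same libraries Rarb had 12.5 and 12.0 normalized counts in Undiff and 9238 and 9419 in Day4.

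The promoter sequences of the members were searched for the repeat on which RAR and RXR are known to sit, because Rarb is a textbook case of it. The half-site searched was AGGTCA, together with the variant AGTTCA, the variant GGGTCA and the variant GGTTCA, on both strands, as direct repeats with a spacer of 5, 2 or 1 bases (DR5, DR2 and DR1). The windows are from RefSeq (GRCm38.p6), 300 bases each, from 250 bases before a gene start to 50 after it. The 8 members had 17 windows, and 1 of them held a DR5, the window of Rarb. Of all 32851 windows 0.0974% held a DR5. Of the 10 RA target genes described below, 5 had a window and 1 held a DR5, that of Cyp26a1, which encodes the enzyme that degrades RA. Both stretches are shown on the strand on which the repeat reads forward, with the half-sites in capitals and 6 bases on either side.
Rarb: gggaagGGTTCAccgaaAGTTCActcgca
Cyp26a1: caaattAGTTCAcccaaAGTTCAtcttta
The Rarb stretch is chr14:16575507-16575535 on the minus strand, the strand of the gene, and its repeat ends 36 bases before the transcript start of that window. This start lies 506.9 kb inside the RefSeq span of Rarb, which runs to 17082331, and it is the 1 start of Rarb in the table, so that the promoters of its other starts were not searched. The Cyp26a1 stretch is chr19:37697770-37697798 on the minus strand, opposite to the gene, and its repeat ends 15 bases before the start. The repeats were identical at 15 of 17 bases. No window of Rara, Rarg, Rxra, Rxrb, Rxrg, Nrip1 or Ncor1 held a DR5, DR2 or DR1 of these letters, which says nothing of other letters, of distal sites or of binding. A single half-site is no mark of these genes, as 43.7% of all windows held at least 1. The match is a description of the sequence and no evidence of a bound site.

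Rara, which encodes RARα and lies on chromosome 11 (98927818 to 98974942, plus strand), was the other RAR gene that rose. It had 1777 and 1865 normalized counts in Undiff and 4572 and 4258 in Day4. Both Day4 libraries were far above both Undiff libraries. The rise from 1821 ± 62.7 to 4415 ± 222 normalized counts (SD, n = 2 in each state) was 2.42-fold, with a log2 fold change of 1.28 ± 0.05 (SE, edgeR, adjusted p = 7.2e-11).

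Rarg, which encodes RARγ (chromosome 15, 102234938 to 102257517, minus strand), fell. It had 5463 and 5669 normalized counts in Undiff and 2809 and 2680 in Day4, and the states did not overlap. The mean went from 5566 ± 146 to 2745 ± 91.0 normalized counts (SD, n = 2 in each state), 2.03-fold lower, with a log2 fold change of -1.02 ± 0.05 (SE, edgeR, adjusted p = 2.0e-10). The estimate lies at the minimum fold change, and the fall was below that minimum with scaling by library totals in place of TMM, the trimmed mean of M-values (-0.95) and without Undiff replicate 2 (-0.99). A test against a fold change of 2 did not call it (adjusted p = 0.294 from edgeR's glmTreat).

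To compare the isotypes, counts were divided by the length of the annotated exons and the effective library size, giving FPKM, the fragments per kilobase of exon scaled to library size. In Undiff, Rarg stood highest of the RARs at 34.2 and 35.5 FPKM, followed by Rara at 10.9 and 11.4 FPKM and Rarb at 0.0634 and 0.0607 FPKM. Day4 had a different order, with Rarb at 46.9 and 47.8 FPKM, Rara at 28.0 and 26.1 FPKM and Rarg at 17.6 and 16.8 FPKM. No neighbours in either order overlapped. As shares of the summed RAR level, Rarg went from 75.7% ± 0.144 to 18.8% ± 0.36, Rarb from 0.135% ± 0.00799 to 51.7% ± 1.43 and Rara from 24.2% ± 0.152 to 29.5% ± 1.07 (SD, n = 2 each). The RAR sum itself was 45.2 and 47.0 FPKM in Undiff and 92.5 and 90.7 FPKM in Day4, a ratio of 1.99. For each share and sum of this and the RXR family the states did not overlap, and the two-sided exact permutation test gave p = 0.33, the smallest that 2 libraries against 2 allow. The shares depend on the gene lengths, and the gain of Rara, 5.33 percentage points, became 2.74 with the longest transcript of each gene.

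**Figure D2:**
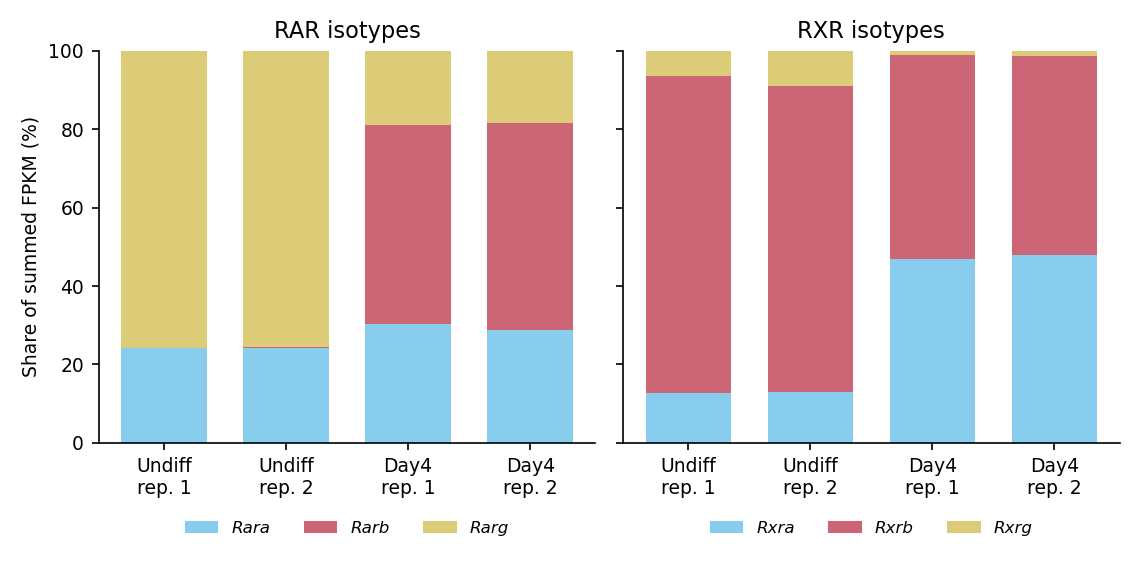
Share of each isotype in the summed FPKM of the RAR genes (left) and RXR genes (right), in percent, with 1 bar per library. Rarg holds about 76% of the RAR sum in both Undiff libraries and Rarb more than 50% in both Day4 libraries, while Rxra grows from about 13% to about 47% of the RXR sum.

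Among the RXR genes, Rxra changed most. Rxra, which encodes RXRα (chromosome 2, 27676440 to 27762957, plus strand), had 456 and 447.5 normalized counts in Undiff and 4310 and 4253 in Day4. The spread between replicates was small beside the gap between the states. The mean rose 9.47-fold, from 452 ± 6.31 to 4282 ± 40.0 normalized counts (SD, n = 2 in each state), which is a log2 fold change of 3.24 ± 0.06 (SE, edgeR, adjusted p = 2.1e-14).

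Rxrb, which encodes RXRβ (chromosome 17, 34031812 to 34038399, plus strand), had 2138 and 1979 normalized counts in Undiff and 3497 and 3295 in Day4. All Day4 values were above all Undiff values. The 1.65-fold rise, from 2059 ± 113 to 3396 ± 143 normalized counts (SD, n = 2 in each state), was beyond the replicate error and short of the minimum fold change (log2 fold change 0.72 ± 0.06, SE, edgeR, adjusted p = 4.2e-08), so that Rxrb was not a DEG.

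Rxrg, which encodes RXRγ (chromosome 1, 167598384 to 167639623, plus strand), was the least counted RXR gene. Its raw counts were 93 and 109 in Undiff and 39 and 61 in Day4, or 96.9, 130, 40.7 and 46.8 normalized counts. Relative to their mean, the Undiff replicates were further apart than those of the other RXR genes, but both were above both Day4 libraries. The mean fell from 114 ± 23.7 to 43.8 ± 4.31 normalized counts (SD, n = 2 in each state), which is a log2 fold change of -1.35 ± 0.21 (SE, edgeR, adjusted p = 5.7e-05). In a test against a fold change of 2 it passed only narrowly (adjusted p = 0.0491 from edgeR's glmTreat).

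On the FPKM scale, Rxrb led the family in Undiff at 14.4 and 13.3, above Rxra at 2.23 and 2.19 and Rxrg at 1.13 and 1.52. In Day4, Rxrb at 23.5 and 22.2 FPKM and Rxra at 21.1 and 20.8 FPKM lay close together, and Rxrg was at 0.474 and 0.545 FPKM. The order of Rxrb and Rxra in Day4 was the same with the longest transcripts (34.5 and 23.3 FPKM on average), at a wider gap, but without lengths Rxra had the larger share in Day4 (54.9% and 56.0% against 44.6% and 43.4% for Rxrb). Their order in Day4 therefore depends on the lengths. As a share of the RXR sum, Rxra rose from 12.7% ± 0.198 to 47.3% ± 0.74, while Rxrb went from 79.6% ± 2.01 to 51.6% ± 0.881 and Rxrg from 7.64% ± 1.81 to 1.15% ± 0.142 (SD, n = 2 each). The RXR sum was 17.7 and 17.0 FPKM in Undiff and 45.1 and 43.5 FPKM in Day4, a ratio of 2.55. The RAR sum divided by the RXR sum was 2.55 and 2.76 in Undiff and 2.05 and 2.08 in Day4. With the longest transcripts the gap was smaller, with ratios of 2.50 and 2.73 against 2.37 and 2.42.

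The cofactors went apart. Nrip1 (chromosome 16, 76287400 to 76373827, minus strand) had 258 and 215 normalized counts in Undiff and 2362 and 2541 in Day4. Each Day4 library was several times above each Undiff library. Nrip1 rose 10.3-fold, from 237 ± 30.5 to 2452 ± 127 normalized counts (SD, n = 2 in each state), with a log2 fold change of 3.37 ± 0.08 (SE, edgeR, adjusted p = 3.8e-13).

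Ncor1 (chromosome 11, 62316426 to 62458541, minus strand) had 11026 and 11861 normalized counts in Undiff and 11326 and 11845 in Day4. Its libraries overlapped between the states. The means were 11444 ± 590 and 11585 ± 367 normalized counts (SD, n = 2 in each state), which is a log2 fold change of 0.02 ± 0.05 (SE, edgeR, adjusted p = 0.72), and the estimate ranged from -0.04 to 0.09 over the alternatives. Per length, Nrip1 stood at 2.62% and 2.03% of the Ncor1 level in Undiff and at 23.3% and 24.0% in Day4. Ncor1 stood above Nrip1 in each library, at 23.0 and 24.7 FPKM in Undiff and 23.6 and 24.7 FPKM in Day4, against 5.51 and 5.93 FPKM for Nrip1 in Day4.

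**Figure D3:**
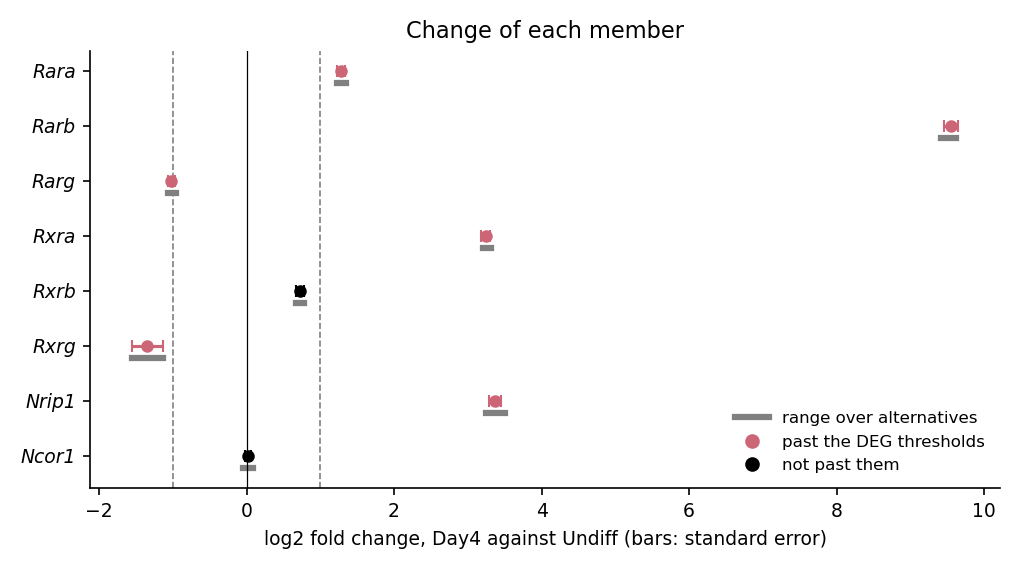
Log2 fold changes of the 8 genes, Day4 against Undiff, with standard errors (bars) and, below each, the range over the alternative analyses (grey). The dashed lines mark the minimum fold change; Rarg (-1.02) lies at it and Rxrb (0.72) and Ncor1 (0.02) lie inside.

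Ncor1 works within a larger complex, and 10 further genes of corepressor complexes were taken as a list. Of these, 3 were DEGs higher in Day4 and none was a DEG lower in Day4, beside 22.2% and 20.6% of all genes, and the median log2 fold change was 0.76. Lcor, a ligand-dependent corepressor, went from 237 and 266 to 671 and 718 normalized counts (log2 fold change 1.48 ± 0.09, SE). Gps2, a subunit of the NCoR complex, was also a DEG (1.07), close to the minimum fold change. A further 6 genes passed the adjusted p-value with a smaller change. Hdac3, the deacetylase of the NCoR complex, Tbl1x, Hdac2 and Sin3b were higher, with log2 fold changes of 0.72, 0.85, 0.79 and 0.72. Hdac1 and Sin3a were lower at -0.70 and -0.98. Sin3a passed as a DEG under several alternatives, among them DESeq2's size factors. Tbl1xr1 did not differ by the test (-0.03, edgeR, adjusted p = 0.57).

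The 14 coactivator genes had 4 DEGs higher and 1 lower in Day4, beside 22.2% and 20.6% of all genes, with a median log2 fold change of 0.27, and 13 passed the adjusted p-value (75.6% of all genes), 8 higher and 5 lower. Ncoa2, a p160 coactivator, went from 1395 and 1362 to 4633 and 4894 normalized counts (log2 fold change 1.79 ± 0.05, SE, edgeR, adjusted p = 1.8e-12). Its p160 paralogues had other values, with 0.51 for Ncoa1 and -0.88 for Ncoa3. Ncoa6 (1.47) and Ncoa5 (1.11) also rose. The acetyltransferase gene Crebbp was at 1.01, at the minimum fold change, and its paralogue Ep300 at -0.31. Crebbp was not a DEG under 8 of the 13 alternatives, in which 3 coactivators were DEGs higher. Kat2b, which encodes the acetyltransferase PCAF, fell from 3344 and 3289 to 805 and 761 normalized counts (log2 fold change -2.09 ± 0.06, SE, edgeR, adjusted p = 7.8e-13), whereas its paralogue Kat2a was at -0.42. Carm1 was the gene that did not pass (0.05), and 21.1% of its exon length overlaps Yipf2 on the opposite strand in GENCODE vM21. Differences between paralogues were not tested.

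**Figure D4:**
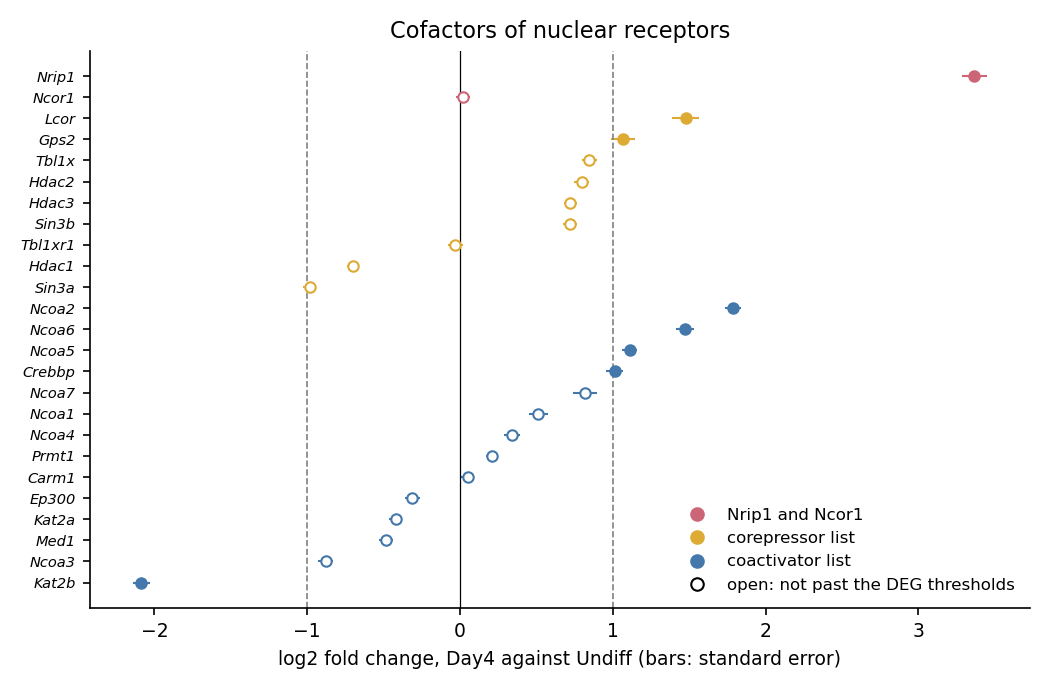
Log2 fold changes, Day4 against Undiff, of Nrip1, Ncor1 and genes of the corepressor and coactivator lists, with standard errors; open circles did not pass the DEG thresholds and dashed lines mark the minimum fold change. Nrip1 (3.37) lies beyond all list genes shown, and Kat2b (-2.09) is the lowest.

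RXRs serve many partners, and 13 genes of RXR partner receptors were examined beside the RXR genes. Of these, 7 were DEGs higher in Day4 and 1 lower, beside 22.2% and 20.6% of all genes, with a median log2 fold change of 1.27 (1.32 with genes of at most 3 counts in both libraries of a state set to the change from that floor). Thra, which encodes thyroid hormone receptor α, went from 452 and 401 to 4809 and 4634 normalized counts, with a log2 fold change of 3.46 ± 0.07 (SE, edgeR, adjusted p = 3.2e-14). In GENCODE vM21 its exons share 263 bases, 5.70% of their length, with Nr1d1 on the opposite strand. This makes its count uncertain if the annotation used for counting shares them and the strand was not used. Pparg, an adipocyte regulator, had 2 and 1 counts in Undiff and 168 and 247 in Day4, a ratio of 110 with a 95% exact binomial interval from 37.3 to 535 for counting error. Vdr (2.58), Nr4a2 (2.50), Thrb (2.04), Ppard (1.37) and Ppara (1.27) were the other DEGs that rose. Nr4a1, an immediate early gene, fell from 1122 and 1221 to 208 and 222 normalized counts (log2 fold change -2.44 ± 0.08, SE). The liver X receptor gene Nr1h2 was lower by less than the minimum (-0.37), and its paralogue Nr1h3 did not differ by the test (0.19, edgeR, adjusted p = 0.53). Nr1h4, Nr1i2 and Nr1i3 had at most 10.4 normalized counts in any library.

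The retinoid receptors are 6 of the nuclear receptors of the mouse, and 43 others were listed, which include the RXR partners. In Day4, 17 of the 43 were DEGs higher and 6 lower, beside 22.2% and 20.6% of all genes, with a median log2 fold change of 0.69 (0.63 with genes at the floor set to their change from it). Nr2f2, which encodes the orphan receptor COUP-TFII, had 9.38 and 12.0 normalized counts in Undiff and 13986 and 13747 in Day4, a log2 fold change of 10.34 ± 0.09 (SE, edgeR, adjusted p = 1.15e-16). Its paralogue Nr2f1 had 3 and 2 counts in Undiff and 2734 and 3820 in Day4, a ratio of 1040 with a counting interval from 446 to 3210. The interval of Rarb, from 503-fold to 1220-fold, overlaps both that of Nr2f1 and that of Nr2f2 (838 to 2170), so that counting error alone does not order the 3 receptors. At the other end, Esrrb, a regulator of pluripotency, fell from 11054 and 11560 to 85.7 and 80.6 normalized counts (log2 fold change -7.09 ± 0.07, SE, edgeR, adjusted p = 2.35e-16). Esrrb is also in the pluripotency marker list. Nr0b1, which encodes DAX1, fell from 1250 and 1566 to 31.3 and 17.7 normalized counts (log2 fold change -5.89 ± 0.18, SE). Nr5a2 and Nr6a1 fell with log2 fold changes of -3.12 and -2.65. The change of Rarg and Rxrg was smaller than that of these receptors.

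**Figure D5:**
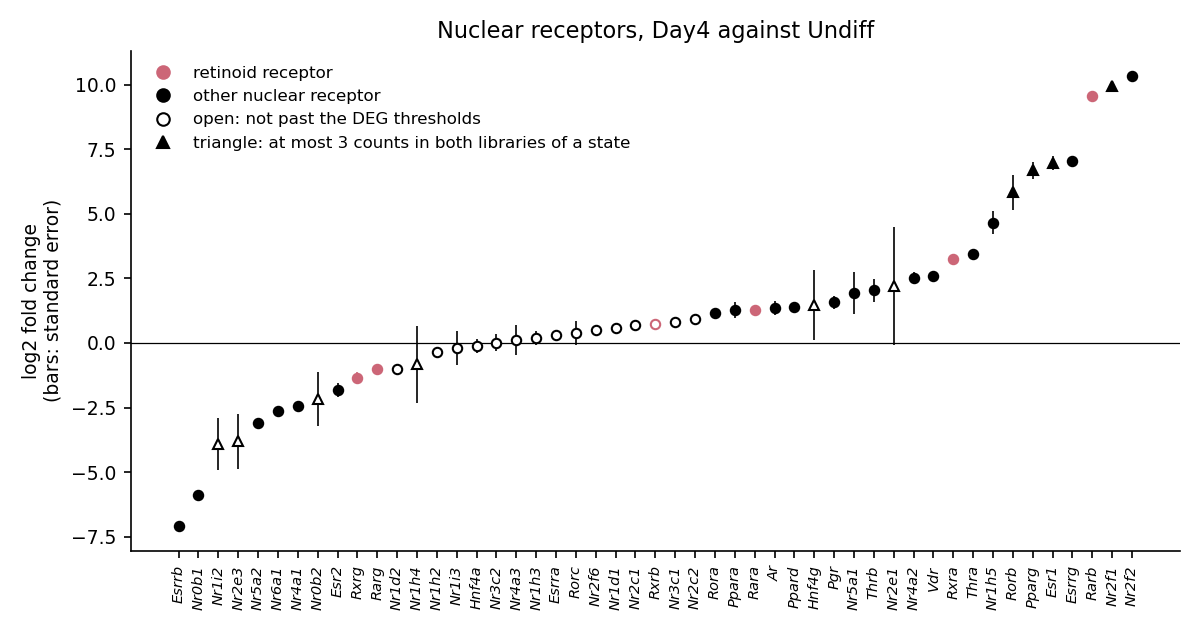
Log2 fold changes, Day4 against Undiff, of the 6 retinoid receptors (red) and 43 other nuclear receptors (black) in order of size, with standard errors. Open symbols did not pass the DEG thresholds, and triangles are genes with at most 3 counts in both libraries of a state, whose fitted size is uncertain; Rarb (9.56) stands near the top, with Nr2f1 and Nr2f2.

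Genes known to respond to RA were taken as a list of 10, chosen from textbook knowledge with earlier results of these data known. Of these, 8 were DEGs higher in Day4 and 1 lower, beside 22.2% and 20.6% of all genes, with a median log2 fold change of 3.64. Dhrs3, which encodes an enzyme that returns retinaldehyde to retinol, went from 63.6 and 50.3 to 13286 and 12859 normalized counts, with a log2 fold change of 7.83 ± 0.08 (SE, edgeR, adjusted p = 2.4e-16). Hoxb1, a hindbrain Hox gene, had 2 and 1 counts in Undiff and 201 and 362 in Day4, a ratio of 149 with a counting interval from 50.8 to 725. Cyp26a1, whose promoter stretch is shown above, went from 72.9 and 63.4 to 465 and 514 normalized counts (log2 fold change 2.84 ± 0.13, SE). Its log2 fold change was below the 9.56 of Rarb, and the difference was not tested. Genes of retinoid transport rose as well, with 5.51 for Stra6, the receptor for retinol-binding protein, and 2.06 for Crabp2, which carries RA to the nucleus. Tgm2, a transglutaminase gene, rose with 3.25. The exception was Cdx1, a homeobox gene, which fell from 25.0 and 21.5 to 3.13 and 7.68 normalized counts (log2 fold change -2.0 ± 0.46, SE, edgeR, adjusted p = 1.5e-03). Stra8, named for its response to RA, was at 126 and 117 normalized counts in Undiff and 149 and 79.1 in Day4, and its libraries overlapped.

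The nearest protein-coding gene on each side of each member, leaving out genes that overlap it, gave 16 neighbours. Of these, 8 were DEGs higher in Day4 and 4 lower, beside 22.2% and 20.6% of all genes, and 4 were neither. At Rarb, Ngly1 (118.9 kb away in GENCODE vM21) had a log2 fold change of 2.01, and the thyroid hormone receptor gene Thrb (841.1 kb) rose from 6.25 and 5.98 to 21.9 and 28.4 normalized counts. Thra, another thyroid hormone receptor gene, is not a nearest neighbour and was added outside that rule. It lies 158.8 kb from Rara and was higher in Day4 (log2 fold change 3.46). The gene next to Rara, Cdc6 (3.88 kb), which loads the replication helicase, fell with a log2 fold change of -1.07. At Rarg, the integrin gene Itgb7 (2.99 kb) fell from a mean of 1406 to 52.6 normalized counts, with a log2 fold change of -4.74, beyond that of Rarg. Slc39a7, a zinc transporter gene 0.13 kb from Rxrb, did not differ by the test (0.00, edgeR, adjusted p = 0.93). At Ncor1, which did not differ by the test, the genes Ttc19 and Pigl on the opposite strand overlap its ends and had log2 fold changes of -0.44 and -1.07. The next genes beyond them, Zswim7 (35.0 kb) and Cenpv (66.4 kb), had log2 fold changes of -1.56 and -2.53.

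The genes whose profile over the 4 libraries was most like that of Rarb, out of 12342 genes with a mean of at least 100 normalized counts, were Nr2f1, Ifi203 and Angpt1. Likeness was the Euclidean distance between the log2 CPM values of the libraries, each centred on the mean of its gene, and the distances were 0.15, 0.24 and 0.27. Angpt1, which encodes angiopoietin 1, had 3.13 and 3.59 normalized counts in Undiff and 3015 and 2930 in Day4. Ifi203, an interferon-induced gene, had 2.08 and 1.20 against 2567 and 2382. For Rxrg, which had the lowest log2 fold change of the members, the closest were Robo4, Camk2a and Zdbf2 at distances of 0.12, 0.13 and 0.16. Robo4 had 708 and 903 normalized counts in Undiff and 323 and 364 in Day4, so that, like Rxrg, its second Undiff library was the higher. With 4 libraries in 2 states, the distance mostly reflects the size of the change, and nothing on shared function follows from it.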

How the data were processed

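Reads of 4 TruSeq libraries of R1 cells were trimmed with cutadapt, aligned to mm10 with STAR 2.4.2a and counted per gene symbol with htseq-count by the authors. The methods give the annotation used for counting genes as an mm10 one from iGenomes UCSC. The deposited values are raw counts of uniquely aligned fragments, as whole numbers without normalization. The methods state that gene counting took strandedness into account and name the Direct RNA libraries as stranded, without an option for TruSeq, whose exons were counted without regard to strand. States and replicate numbers came from the labels.

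All 19891 genes with at least 1 fragment entered the quasi-likelihood test of edgeR 4.0.16 in R 4.3.3 (glmQLFit with legacy off, glmQLFTest), after TMM scaling, and p-values were adjusted by Benjamini-Hochberg. The edgeR test stands in place of the DESeq2 of the authors, whose thresholds for a DEG were kept. Standard errors were derived from the log2 fold change and its F statistic. As each state has 2 libraries, the adjusted p-values lean on a variance shared across genes (common dispersion 0.00134). In simulated counts with 200 of 19520 genes changed, edgeR recovered 200 and called 0 others. DESeq2 recovered 200 without its prior and 134 with the settings of the authors. In the real counts these DESeq2 fits were close, with 4139 DEGs higher and 3975 lower without the prior. With the settings of the authors they were 4137 and 3977. The simulation gave every gene the common dispersion and changed few genes, all well counted and beyond the minimum fold change. It therefore checks that the code runs as meant, and cannot show how genes near the minimum or with a larger variance are called. Counting intervals are exact binomial intervals on the counts summed over the replicates, at 95%. FPKM and shares used exon lengths and positions of GENCODE vM21 (GRCm38), which is not the annotation used for counting. Promoter windows and starts came from RefSeq (GRCm38.p6). All 8 members matched both.

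The members and lists were chosen with earlier results of these data known. By rule, all members were named, and of each list the DEGs with the 2 highest and 2 lowest changes, provided they averaged 1 CPM or more. Other list genes and the neighbours were named after their values were seen. The alternatives were DESeq2 1.42.0 with the settings of the authors and without its prior, other scalings, filterByExpr, a replicate block, each replicate left out, thinned libraries, a test against a fold change of 2, other gene lengths and, chosen after seeing the data, the earlier method of glmQLFit. The median log2 fold change of all genes was -0.03. A few list genes enter the counts and medians of their lists and are not reported here by name.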

Additional observations from a re-analysis of the deposited data

How the results depend on the processing

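Rara, Rarb, Rxra, Rxrb, Rxrg and Nrip1 kept their direction and their call under all 13 alternatives, with log2 fold changes from 1.23 to 1.34, 9.42 to 9.62, 3.20 to 3.31, 0.67 to 0.79, -1.56 to -1.13 and 3.25 to 3.51. Rarg was not a DEG with library totals (-0.95), in the test against a fold change of 2 (-1.02) or without Undiff replicate 2, and with each replicate left out it ranged from -1.05 to -0.99. In these 3 analyses 1 member instead of 2 was a DEG lower in Day4, and the range with a replicate left out was 1 to 2. Ncor1, never called, changed its sign with DESeq2 (-0.019 with and without the prior), DESeq2's size factors (-0.019), filterByExpr (-0.013) and thinned libraries (-0.016), and ranged from -0.045 to 0.072 with each replicate left out. The corepressor list had 1 DEG lower in Day4, Sin3a, in place of 0 in the DESeq2, size factor, filterByExpr and thinned analyses and from 0 to 1 with a replicate left out. The RXR partner list had 1 to 2 DEGs lower in Day4 with a replicate left out, and 2 without either Day4 replicate, the second being Nr1i2. Crebbp lost its call under 8 alternatives (3 in place of 4 coactivator DEGs higher), from 0.93 to 1.08 over all. Counts of DEGs higher in Day4 also fell, for the corepressor list also without Undiff replicate 1 or without Day4 replicate 2. In the test against a fold change of 2 they were 2 in place of 3 corepressor genes and 6 in place of 7 RXR partners. Of the other nuclear receptors, 13 in place of 17 were higher in that test. With thinned libraries 6 RXR partners and 15 other nuclear receptors were higher, and 7 in place of 6 of the latter were lower. The number of other nuclear receptors that were lower rose further without either Day4 replicate. With library totals or the test against a fold change of 2, 1 endothelial and blood marker in place of 2 was lower. The causes were not tested.

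With the longest transcript or without lengths, the change in share, Day4 minus Undiff, was 2.74 or 2.16 percentage points for Rara, 57.2 or 56.4 for Rarb, -59.9 or -58.6 for Rarg, 30.0 or 38.2 for Rxra and -25.1 or -34.5 for Rxrb, and -3.78 without lengths for Rxrg. For Rxrg it was -4.87 with the longest transcript. With each replicate left out, it ranged from 4.575 to 6.085 for Rara, 50.56 to 52.59 for Rarb and -57.15 to -56.65 for Rarg. For the RXR genes these ranges were 34.04 to 35.09 for Rxra, -29.51 to -26.66 for Rxrb and -7.76 to -5.20 for Rxrg. No share changed direction.

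No shift shared by replicate number was seen (correlation of the deviations of replicate 1 between the states 0.00 across 12349 genes, which are not independent). With 2 libraries in each state, this cannot show whether the libraries were paired. With the replicate number as a block, 4414 genes were DEGs higher and 4101 lower in Day4, the log2 fold change of Rarb was 9.56, and no call of a member changed. With at most 12 counts per Undiff library, depth limits the size of the Rarb change more than its direction.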

Other observations

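The DR5 letters were also read against the counts of all genes, as a description without a test. In the RefSeq windows, 31 genes held a DR5, of which 11 were tested. Of these 11, 6 were DEGs higher in Day4 (54.5%, beside 22.2% of all genes) and 1 was lower (9.09%, beside 20.6%), and the median log2 fold change was 2.02. The 6 genes were Rarb, Cyp26a1, the embryonic globin gene Hbb-y, the prokineticin receptor gene Prokr2, Syndig1 and Tnfsf13b, which encodes the cytokine BAFF. The DR2 repeat had 3 DEGs higher and 4 lower among 15 tested genes, and the DR1 repeat had 6 higher and 13 lower among 36. The genes are few, Rarb and Cyp26a1 were known to hold the DR5 when the count was made, and the search covers 4 half-sites only.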
